A study of Homo sapiens with 9 samples.

Results

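The transcripts of 10 genes that control passage through the G1 phase of the cell cycle were followed in Huh-7 cells and in 2 knockout clones derived from them. The genes were chosen as members of a few gene families, with earlier results of these data known. They were the D-type cyclins CCND1, CCND2 and CCND3, the cyclin-dependent kinases CDK4 and CDK6, the INK4 inhibitors CDKN2B and CDKN2C and the CIP/KIP inhibitors CDKN1A, CDKN1B and CDKN1C, and together they are 10 of the 58735 genes counted in the deposited tables. Polyadenylated RNA was sequenced from 9 libraries in 3 groups of 3. The control group was Huh-7, a human hepatoma cell line, with its APOB and MTTP genes intact. The Ako-3 group was a Huh-7 clone in which Cas9 protein and guide RNAs had been aimed at exon 6 of APOB, the gene of the structural protein of triglyceride-rich lipoproteins. The Mko-3 group was a Huh-7 clone in which MTTP, the gene of the transfer protein that loads lipid onto apoB, had been knocked out. Cells of all 3 groups were grown close to confluence, washed, and kept overnight in medium without serum before the RNA was taken. Each knockout was represented by 1 clone, and the same control libraries served both, so that the effect of a gene and the character of a clone cannot be told apart. The labels call the 3 libraries of a group biological replicates, and the p-values measure the spread between those libraries.

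D-type cyclins are made when growth factors act on a cell. They bind CDK4 or CDK6, and the active kinase phosphorylates the retinoblastoma protein, which frees E2F transcription factors to switch on the genes of DNA synthesis. INK4 proteins bind the kinases themselves and keep cyclin D off, whereas CIP/KIP proteins bind assembled cyclin and kinase complexes and act mainly on CDK2. CDKN1A is a classical target of p53 and CDKN2B a classical target of TGF-beta signalling. In resting adult liver cyclin D1 is low, and it is induced when hepatocytes regenerate.

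Total counts ranged from 14638727 to 20179760 per library, and 5.52% to 6.17% of them lay on mitochondrial genes in control, 7.06% to 7.40% in Ako-3 and 5.75% to 5.82% in Mko-3 cells. The labels were checked on the targeted genes. APOB was 3354 ± 609 CPM, the count scaled to library size (SD, n = 3), in control cells, 1315 ± 91.2 in Ako-3 cells and 3258 ± 147 in Mko-3 cells, so that the targeted gene was reduced but still transcribed in the Ako-3 clone. MTTP was 634 ± 29.7 CPM in control cells, 572 ± 29.3 in Ako-3 cells and 87.0 ± 3.86 in Mko-3 cells. Its log2 fold change in Ako-3 against control was -0.16 by edgeR (adjusted p = 0.039). All 9 hepatoma markers examined, ALB and AFP among them, were above 1 FPKM (a level scaled by gene length and library size) in every library, and their sum was 5137 to 5304 FPKM in control, 6105 to 6386 in Ako-3 and 5068 to 5309 in Mko-3 cells. Within it ALB had means of 2547, 2595 and 1833 FPKM and AFP of 1050, 1168 and 1840 FPKM in the same order. All 4 stellate cell or fibroblast markers and 3 of 4 leukocyte markers were under 1 FPKM in every library, and the leukocyte sum, nearly all of it CD14, was 2.67 to 3.67 FPKM in control, 5.15 to 5.79 in Ako-3 and 3.22 to 4.30 in Mko-3 cells. The stellate cell or fibroblast sum was 0.522 to 0.568 FPKM in control, 0.564 to 0.980 in Ako-3 and 0.567 to 0.731 in Mko-3 cells. The sum of the 3 endothelial markers, carried by PECAM1 with VWF near 0, was 9.86 to 11.3 FPKM in control, 13.5 to 14.6 in Ako-3 and 7.30 to 7.97 in Mko-3 cells. That of the 3 cholangiocyte markers, SOX9 and KRT19 with KRT7 near 0, was 86.5 to 101 FPKM in control, 67.7 to 71.6 in Ako-3 and 96.2 to 98.7 in Mko-3 cells. Its parts differed in opposite directions, since KRT19 had means of 3.99, 5.64 and 30.5 FPKM and SOX9 of 88.0, 64.5 and 66.8 FPKM in the same order. The part of these markers in the results was not tested. Control replicate 2 stood apart from the other two control libraries in proliferation genes. PCNA, the sliding clamp of the replication fork, was 173 CPM there against 91.1 and 90.0, and MCM2, a subunit of the replicative helicase, was 95.9 CPM against 55.5 and 51.4. CDKN2B and CDKN1A were lowest, and CCND1, CCND3, CDKN2C and CDKN1B highest, of the control group in that same library. For CDKN1B the margin was small, at 106.0 CPM against 105.7 and 95.9. Values without control replicate 2 are given below for CDKN2B, CDKN1A, CCND1, CCND3, CDKN2C and CDKN1B. In bulk RNA, fewer cells in a phase of the cycle and less RNA per cell cannot be told apart.

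Levels of different genes were compared as FPKM, a scale that divides the counts by gene length and library size. The length is the deposited one of each gene, 4830 bases for CCND1 and 3168 for CDK4. The deposited bounds of CDK4 and CCND3 reach beyond their main transcripts, so that the order depends on the lengths taken. Which transcripts these cells used was not tested. On this scale CCND1 was the most abundant of the 10 genes in every group, at 54.3 ± 1.41 FPKM in control cells (SD, n = 3). It was followed by CDK4 at 42.1 ± 3.21, CDKN1B at 36.1 ± 2.08 and CDKN1A at 27.8 ± 3.33. CDKN2C at 6.74 ± 0.81 and CDK6 at 6.21 ± 0.83 FPKM came next, and their ranges overlapped in control cells. CDKN2B followed at 4.21 ± 0.67 and CCND3 at 2.48 ± 0.28 FPKM. CDKN1C at 0.093 ± 0.023 FPKM and CCND2 at 0.008 ± 0.013 FPKM were close to absent. The order of the 8 abundant genes was the same in both clones but for CDKN2B, which lay below CCND3 there, and all neighbours among these 8 then had ranges that did not overlap.

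**Figure D1:**
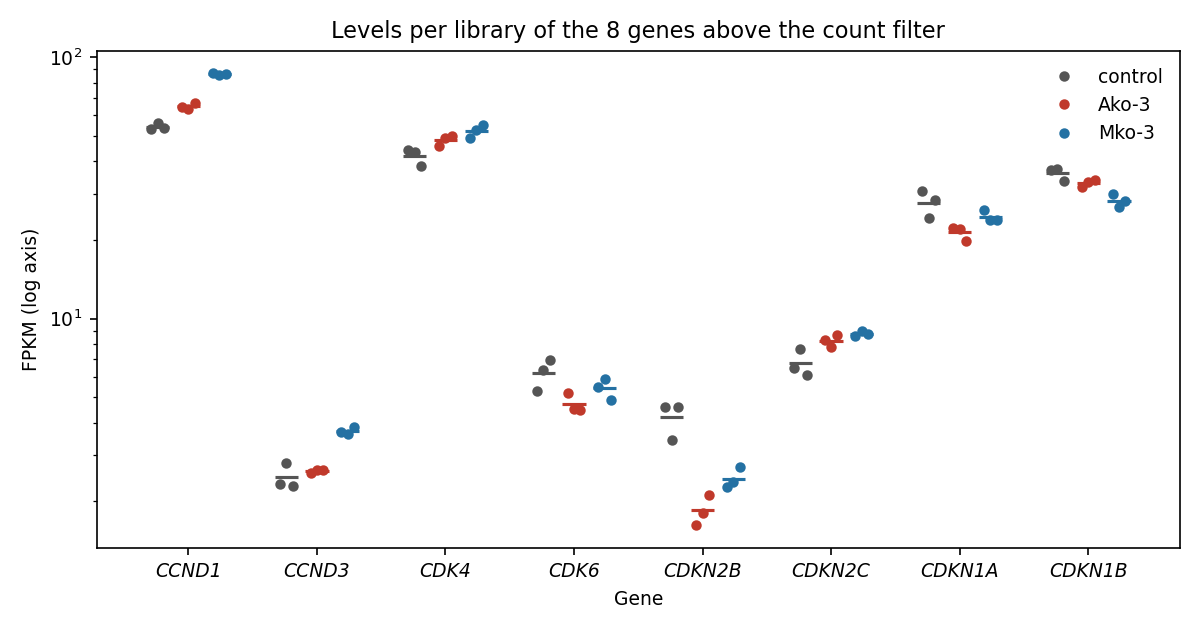
FPKM of the 8 G1 genes above the count filter, on a log axis, with 1 point per library and a bar at the mean of each group of 3 libraries. CCND1 stepped up from control (53.2 to 55.9) to Ako-3 (63.7 to 66.7) and Mko-3 (86.0 to 86.9), and CDKN2B lay lower in both clones than in control cells.

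Differences between groups were tested gene by gene on the counts with edgeR. A gene was called when its log2 fold change was at least 1 in size and its Benjamini-Hochberg adjusted p over all genes tested was at most 0.05, and "rose" and "fell" are used below for an adjusted p of at most 0.05 whatever the size. CCND2 and CDKN1C had too few counts to pass the count filter, so that 8 of the 10 genes were tested in each comparison. In Ako-3 against control cells 1 of the 8 was called, CDKN2B, where 8.52% of the 15787 genes tested were called. With limma on log2(FPKM + 1) CDKN2B was at -0.87, and 0 of the 8 were called. By the adjusted p alone 3 of the 8 rose and 3 fell, against a background of 25.5% higher and 24.4% lower, and these same counts of genes had no overlap between the libraries of both groups, against 29.7% and 28.0% of all genes. In Mko-3 against control cells none of the 8 was called, against 11.0% of 15745 genes, and none was called by DESeq2 either. By the adjusted p alone 4 rose and 2 fell there, against 26.9% and 27.1%, and 4 and 2 had no overlap, against 30.9% and 29.8%. With 6 of 8 past the adjusted p the share was above the background of 49.9% for Ako-3 and 54.0% for Mko-3, on 8 genes in each. The sizes were ordinary for these clones. The median size of the log2 fold change over the 8 genes was 0.27 for Ako-3 and 0.37 for Mko-3, where that over all genes tested was 0.31 and 0.34. Without control replicate 2, 1637 genes in place of 1345 were called for Ako-3 and 2106 in place of 1739 for Mko-3, and of the 8 genes 6 and 7 then passed the adjusted p.

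**Figure D2:**
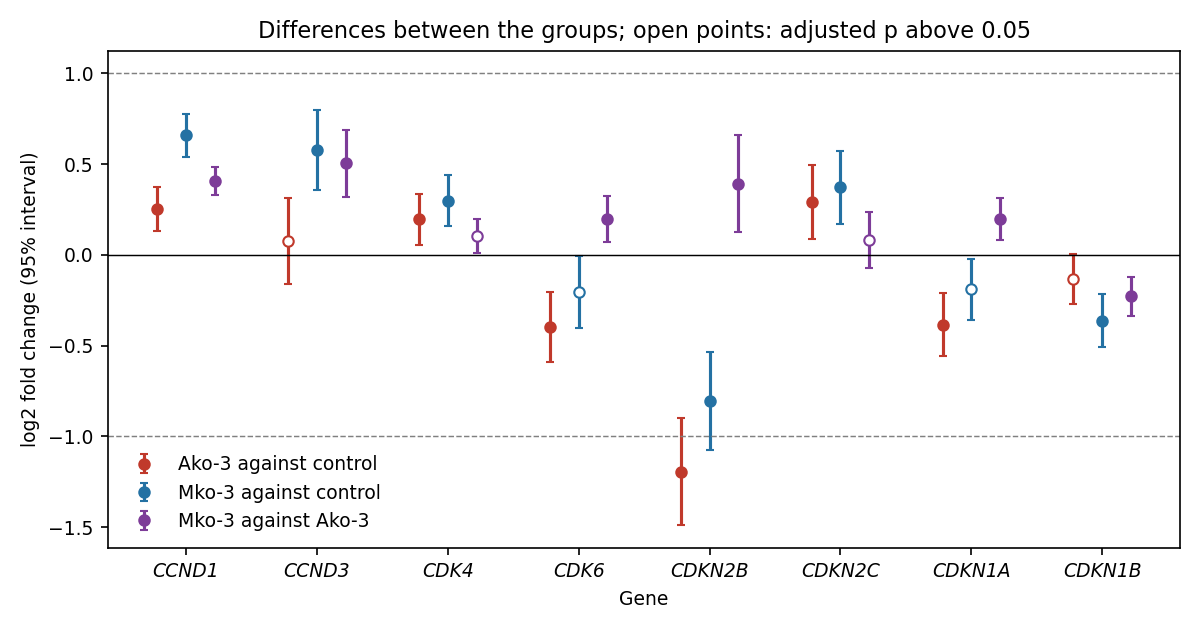
Log2 fold change of the 8 tested G1 genes in each of the 3 comparisons, with its 95% interval from edgeR. Filled points have an adjusted p of at most 0.05, and the dashed lines mark a log2 fold change of 1 in either direction, which only CDKN2B in Ako-3 cells passed, at -1.19.

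CCND1 encodes cyclin D1 and lies on chromosome 11 (hg38, chr11:69641087-69654474, plus strand, 5 exons in its main transcript). Its level was 53.2, 55.9 and 53.9 FPKM in the control libraries, 64.5, 63.7 and 66.7 in Ako-3 and 86.9, 86.0 and 86.3 in Mko-3. The 3 groups formed 3 separate steps with no overlap. CCND1 rose by 0.25 on the log2 scale in Ako-3 (SE 0.06, adjusted p = 0.0012, 19.2% higher) and by 0.66 in Mko-3 (SE 0.06, adjusted p = 4.5e-09, 57.8% higher), and it was higher in Mko-3 than in Ako-3 cells by 0.41 (SE 0.04, adjusted p = 1.4e-14). It had the smallest relative spread of the 8 genes within Mko-3 cells, with an SD of 0.475 FPKM on a mean of 86.4. Counts of 4122 to 7483 per library lay behind these values. Without control replicate 2 CCND1 was at 0.27 on the log2 scale in Ako-3 (adjusted p = 0.00021) and at 0.69 in Mko-3 (adjusted p = 7.4e-12). The gene LTO1 overlaps the 3′ end of CCND1 on the other strand with 318 to 487 counts per library, and counts of such pairs cannot be told apart by strand here.

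CCND3, which encodes cyclin D3 (chr6:41934933-42050357, minus strand, 5 exons), was 2.34, 2.80 and 2.29 FPKM in control libraries, 2.57, 2.63 and 2.63 in Ako-3 and 3.69, 3.63 and 3.84 in Mko-3. The Mko-3 libraries were all above the others, and the Ako-3 libraries lay inside the control range. CCND3 rose in Mko-3 against control by 0.58 (SE 0.11, adjusted p = 9.1e-05) and was higher there than in Ako-3 cells by 0.50 (SE 0.09, adjusted p = 6.1e-06). In Ako-3 against control its log2 fold change was 0.08, with a 95% interval from -0.16 to 0.31 and an adjusted p of 0.61. Without control replicate 2 it was 0.17 in Ako-3 (adjusted p = 0.25) and 0.68 in Mko-3 (adjusted p = 4.5e-06). CCND2, the gene of cyclin D2 (chr12:4273772-4305350, plus strand, 5 exons), had 3, 1 and 1 counts summed over the libraries of control, Ako-3 and Mko-3, all at or under the floor of 3 counts, so that no fold is given. CCND1 therefore made up nearly all D-type cyclin transcript on the per-length scale, with 95.6% ± 0.35 of the summed FPKM in control, 96.1% ± 0.10 in Ako-3 and 95.9% ± 0.12 in Mko-3 cells.

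CDK4 (chr12:57747727-57756013, minus strand, 8 exons) encodes the more abundant of the G1 kinases in these cells. It was 44.3, 43.6 and 38.4 FPKM in control libraries, 45.8, 49.0 and 50.2 in Ako-3 and 49.0, 52.6 and 55.1 in Mko-3. Every clone library was above every control library, while the clones overlapped each other. CDK4 rose by 0.20 in Ako-3 (SE 0.07, adjusted p = 0.021) and by 0.30 in Mko-3 (SE 0.07, adjusted p = 0.00084). The rise in Ako-3 depended on single libraries, since its adjusted p was 0.11 without control replicate 3, 0.071 without Ako-3 replicate 2 and 0.098 without Ako-3 replicate 3. CDK4 shares its locus with 2 genes on the other strand, TSPAN31 and ENSG00000139266, which had 345 to 584 counts where CDK4 had 2109 to 3094.

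CDK6 (chr7:92604921-92836594, minus strand, 8 exons), encodes the other kinase that D-type cyclins bind. Its level was 5.31, 6.38 and 6.94 FPKM in control libraries, 5.18, 4.53 and 4.45 in Ako-3 and 5.50, 5.90 and 4.87 in Mko-3. The Ako-3 libraries were below all control libraries, while the Mko-3 libraries overlapped both groups. CDK6 fell by 0.40 in Ako-3 (SE 0.09, adjusted p = 0.0014), and for Mko-3 the log2 fold change was -0.21 (SE 0.09, adjusted p = 0.074), with an adjusted p of 0.0029 without control replicate 1 and 0.049 without Mko-3 replicate 2. The ratio of CDK4 to CDK6 in FPKM was 6.91 ± 1.41 in control, 10.3 ± 1.29 in Ako-3 and 9.72 ± 1.38 in Mko-3 cells (SD, n = 3).

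CDKN2B encodes p15, an INK4 inhibitor of CDK4 and CDK6. It lies on chromosome 9 (hg38, chr9:22002903-22009363, minus strand, 2 exons), next to CDKN2A. It was the gene of the 10 with the largest tested change. Its counts were 349, 213 and 341 in control libraries, 109, 146 and 150 in Ako-3 and 164, 170 and 169 in Mko-3, and its level was 4.58, 3.44 and 4.61 FPKM, 1.62, 1.80 and 2.12 FPKM and 2.27, 2.36 and 2.70 FPKM in the same order. Control, Mko-3 and Ako-3 libraries followed each other downwards without overlap. CDKN2B fell by 1.19 in Ako-3 (SE 0.14, adjusted p = 7.6e-07), or to 0.437 of the control level, with a 95% interval from -1.49 to -0.90. It fell by 0.80 in Mko-3 (SE 0.13, adjusted p = 2.2e-05), or to 0.573 of the control level. Of all genes tested in Ako-3 against control, 3.26% had a log2 fold change as low or lower. Control replicate 2 was the lowest control library, and without it the log2 fold changes were -1.32 in Ako-3 and -0.92 in Mko-3. In Mko-3 against Ako-3 cells CDKN2B was higher by 0.39 (SE 0.13, adjusted p = 0.014), a difference with an adjusted p of 0.086 without Ako-3 replicate 1 and 0.091 without Mko-3 replicate 3. The antisense gene CDKN2B-AS1 had 13 to 26 counts per library, a small part beside CDKN2B itself.

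CDKN2C encodes p18, the other INK4 protein of the set (chr1:50960745-50974633, plus strand, 2 exons in its main transcript). It was 6.46, 7.66 and 6.10 FPKM in control libraries, 8.27, 7.80 and 8.69 in Ako-3 and 8.63, 9.0 and 8.71 in Mko-3. Both clones lay above all control libraries and overlapped each other, so that these INK4 genes moved in opposite directions. CDKN2C rose by 0.29 in Ako-3 (SE 0.10, adjusted p = 0.018) and by 0.37 in Mko-3 (SE 0.10, adjusted p = 0.0026). Its adjusted p in Ako-3 was 0.054 without control replicate 1, 0.091 without control replicate 3 and 0.083 without Ako-3 replicate 3. Without control replicate 2 the log2 fold changes were 0.39 in Ako-3 (adjusted p = 0.0016) and 0.48 in Mko-3 (adjusted p = 9.2e-05). The share of CDKN2B in the summed FPKM of CDKN2B and CDKN2C was 38.5% ± 6.55 in control, 18.3% ± 1.68 in Ako-3 and 21.8% ± 1.66 in Mko-3 cells. The remaining INK4 genes were looked up after these values had been seen. CDKN2A, the neighbour of CDKN2B, was 68.9, 70.6 and 66.1 CPM in control, Ako-3 and Mko-3 cells, and its log2 fold change was 0.03 in Ako-3 (adjusted p = 0.79) and -0.07 in Mko-3 (adjusted p = 0.42). CDKN2D, the gene of p19, fell by 0.64 (adjusted p = 0.00011) and by 0.54 (adjusted p = 4e-04).

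The promoters of the pair are shown because these INK4 genes moved in opposite directions in both clones. Each is the run of 250 bases before the start of the main transcript in RefSeq (GRCh38.p14), read 5′ to 3′ on the strand of the gene, and capitals mark matches to the motifs searched. CDKN2B is chr9:22009306-22009555 on the minus strand, of which the last 58 bases lie inside the gene as the deposited tables bound it, and CDKN2C is chr1:50969995-50970244 on the plus strand, inside an intron of longer CDKN2C transcripts.
CDKN2B: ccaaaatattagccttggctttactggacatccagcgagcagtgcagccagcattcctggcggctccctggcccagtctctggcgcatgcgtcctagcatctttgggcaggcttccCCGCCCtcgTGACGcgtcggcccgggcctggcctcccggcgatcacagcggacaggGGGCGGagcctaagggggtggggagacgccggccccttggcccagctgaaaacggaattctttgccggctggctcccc
CDKN2C: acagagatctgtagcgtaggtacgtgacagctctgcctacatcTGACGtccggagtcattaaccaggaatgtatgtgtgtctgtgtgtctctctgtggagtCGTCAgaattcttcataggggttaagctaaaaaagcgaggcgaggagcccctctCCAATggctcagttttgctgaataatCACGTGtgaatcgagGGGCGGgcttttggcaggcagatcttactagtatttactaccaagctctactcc

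Both strands were searched for the GC box GGGCGG, the CRE TGACGTCA and its part TGACG, the AP-1 site TGACTCA, the E-box CACGTG, the E2F sites TTTGGCGC and TTTCGCGC, the TATA box TATAAA, the CAAT box CCAAT and the SMAD box GTCTAGAC. TGACG is contained in the CRE, so that matches to these overlap. Both windows held GGGCGG, which 42.6% of 35116 such windows hold, and TGACG, which 21.2% hold. The CDKN2C window also held CACGTG, present in 6.34% of windows, and CCAAT, present in 32.0%. Neither window held these letters of the E2F, SMAD, AP-1, TATA or full CRE motifs. CDKN2C also had windows at other starts, which are not shown. That from 50968456 held GGGCGG and TGACG without CACGTG or CCAAT, and that from 50960495 held TGACG and CACGTG without GGGCGG or CCAAT. Which start these cells used was not tested. The table of promoters had windows for 7 of the 10 genes. A match of letters is a description of the window.

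CDKN1A encodes p21, the CIP/KIP inhibitor best known as a p53 target (chr6:36676460-36687339, plus strand, 3 exons). It was 30.8, 24.2 and 28.4 FPKM in control libraries, 22.2, 22.1 and 19.8 in Ako-3 and 26.0, 23.9 and 23.9 in Mko-3. The Ako-3 libraries were the lowest, and the Mko-3 libraries reached into the control range only through control replicate 2. CDKN1A fell by 0.38 in Ako-3 (SE 0.08, adjusted p = 0.00071), and by 0.47 without control replicate 2 (adjusted p = 2.7e-06). In Mko-3 cells CDKN1A was at -0.19 on the log2 scale (SE 0.08, adjusted p = 0.051), and at -0.27 with an adjusted p of 0.0015 without control replicate 2. With the replicate number as a block, that adjusted p was 0.041.

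CDKN1B encodes p27 (chr12:12715058-12722371, plus strand, 3 exons) and was the most abundant inhibitor. It was 37.2, 37.4 and 33.7 FPKM in control libraries, 32.0, 33.3 and 33.8 in Ako-3 and 29.9, 26.8 and 28.3 in Mko-3. The Mko-3 libraries were below all others, while the Ako-3 libraries touched the control range. CDKN1B fell in Mko-3 by 0.36 against control (SE 0.07, adjusted p = 0.00016) and was lower than in Ako-3 cells, at a log2 difference of -0.23 (SE 0.05, adjusted p = 0.00027). In Ako-3 against control it was -0.13 (SE 0.07, adjusted p = 0.11), with an adjusted p of 0.047 without control replicate 3. Without control replicate 2 CDKN1B was at -0.11 in Ako-3 (adjusted p = 0.19) and at -0.33 in Mko-3 (adjusted p = 0.00019).

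CDKN1C, the gene of p57 (chr11:2883213-2885773, minus strand, 4 exons), was near the limit of detection. Its counts were 5, 4 and 3 in control libraries, 0, 0 and 0 in Ako-3 and 2, 1 and 0 in Mko-3. The counts of the group summed to 12 in control, 0 in Ako-3 and 3 in Mko-3 cells. The ratio of Ako-3 to control, scaled by library size, had an upper 95% limit of 0.350. That of Mko-3 to control was 0.256, with a 95% interval from 0.0464 to 0.950. Both intervals cover counting error only.

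The clones were then compared with each other. In Mko-3 against Ako-3 cells none of the 8 genes was called by edgeR or by DESeq2, against 5.73% of 15528 genes. By the adjusted p alone 5 were higher in Mko-3 and 1 was lower, against 21.1% and 20.6% of all genes (41.6% in both directions), and 4 and 1 had no overlap, against 25.6% and 24.1%. The genes higher in Mko-3 were CCND1, CCND3, CDK6, CDKN2B and CDKN1A, and the lower one was CDKN1B. The median log2 difference of the 8 was 0.20, where that of all genes was 0.00. CDK6 was higher by 0.20 (SE 0.06, adjusted p = 0.010) although its libraries overlapped, and its adjusted p was 0.064 without Ako-3 replicate 2, 0.067 without Ako-3 replicate 3 and 0.13 without Mko-3 replicate 2. CDKN1A was higher by 0.20 (SE 0.06, adjusted p = 0.0040), and the adjusted p was 0.057 without Ako-3 replicate 3 and 0.056 without Mko-3 replicate 1. For CDK4 the difference was 0.10 with a 95% interval from 0.01 to 0.20 and an adjusted p of 0.067, which became 0.033 without Ako-3 replicate 3 and 0.021 without Mko-3 replicate 1, and 0.046 with the replicate number as a block. CDKN2C differed by 0.08, with an interval from -0.07 to 0.24 and an adjusted p of 0.41.

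Sums over the families on the per-length scale showed how the groups were placed. The summed FPKM of the D-type cyclins was 56.8 ± 1.67 in control, 67.5 ± 1.56 in Ako-3 and 90.2 ± 0.50 in Mko-3 cells. That of the 5 inhibitors was 75.0 ± 3.66 in control, 64.5 ± 0.44 in Ako-3 and 64.2 ± 2.43 in Mko-3 cells. The ratio of cyclin to inhibitor transcript was 0.701 to 0.806 in control libraries, 1.02 to 1.07 in Ako-3 and 1.36 to 1.44 in Mko-3, so that the 3 groups did not overlap. These sums follow CCND1 on the one side and CDKN1B and CDKN1A on the other. They are given as a description with no test. The inhibitor sum leaves out CDKN2A and CDKN2D, so that the ratio depends on the genes taken.

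**Figure D3:**
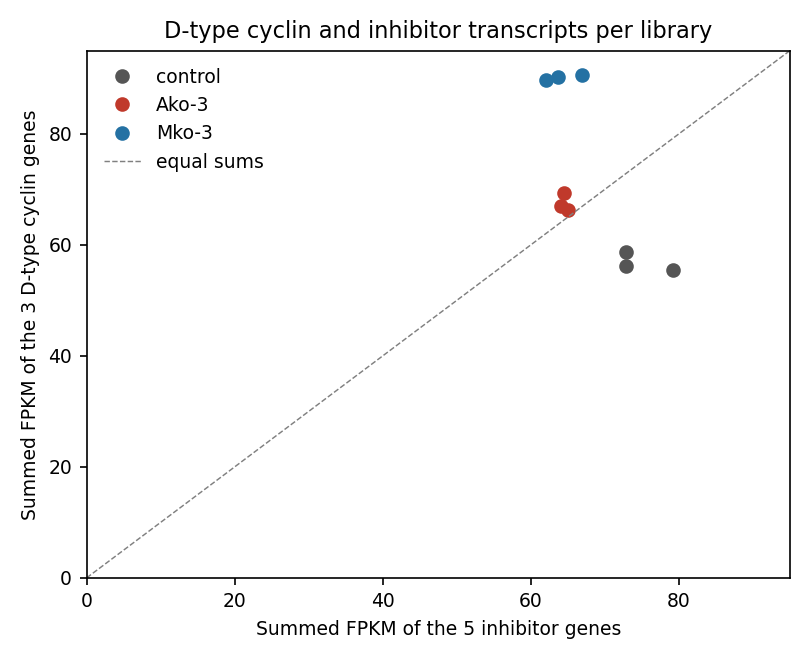
Summed FPKM of CCND1, CCND2 and CCND3 (vertical) against that of the 5 inhibitor genes (horizontal), with 1 point per library and a dashed line of equal sums. Control libraries lay below the line (ratio 0.701 to 0.806), Ako-3 libraries just above it (1.02 to 1.07) and Mko-3 libraries higher (1.36 to 1.44). CDKN2A and CDKN2D are not among the 5 inhibitor genes.

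The genes around CDKN2B and CCND1 were examined for the direction of their differences. Within 1 Mb of CDKN2B there were 5 tested genes, CDKN2A, MTAP, KLHL9, DMRTA1 and CDKN2B-AS1, and none was called in any comparison. Their log2 fold changes ran from -0.74 to 0.03 in Ako-3 and from -0.15 to -0.00 in Mko-3, and of them KLHL9 in Ako-3 passed the adjusted p (-0.28, adjusted p = 0.029). CDKN2B-AS1, at about 1 CPM, had -0.74 in Ako-3 (SE 0.35, adjusted p = 0.080) and -0.07 in Mko-3 (SE 0.33, adjusted p = 0.88). Around CCND1, 9 of 18 tested neighbours were higher and 9 lower in Ako-3, and 11 of 19 were higher and 8 lower in Mko-3. Of these, 5 were called in Ako-3 and 1 in Mko-3, against 8.52% and 11.0% of all genes tested. The gene FGF19, whose midpoint lies 53.7 kb from that of CCND1, was chosen after its values had been seen. It was 45.9, 15.3 and 31.2 CPM in control, Ako-3 and Mko-3 cells, and fell by 1.60 in Ako-3 and by 0.57 in Mko-3, where CCND1 rose.

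**Figure D4:**
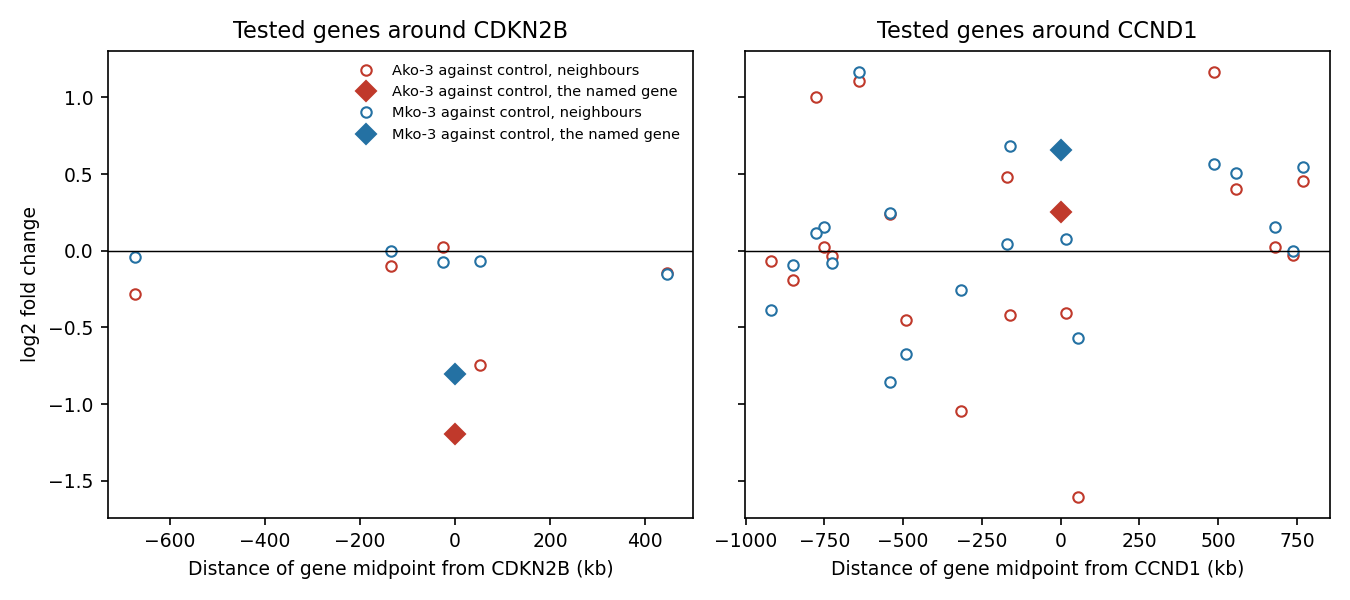
Log2 fold change of tested genes within 1 Mb of CDKN2B (left) and CCND1 (right) against the distance of their midpoints in kb, with open circles for neighbours and diamonds for CDKN2B or CCND1. The 5 neighbours of CDKN2B lay between -0.74 and 0.03 while CDKN2B was at -1.19 and -0.80, and the neighbours of CCND1 lay on both sides of 0.

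The other genes of the pathway were taken as 6 lists. Over all genes tested, 25.5% rose, 24.4% fell and 8.52% were called in Ako-3, and 26.9%, 27.1% and 11.0% in Mko-3, and the counts of each list stand beside that background. Of 20 partners of RB and E2F and late G1 genes, all tested, 13 rose and 2 fell in Ako-3 and 11 rose and 2 fell in Mko-3, with median log2 fold changes of 0.34 and 0.48 where all genes had -0.01. CDC25A, the phosphatase that activates CDK2, rose by 1.21 in Ako-3 (adjusted p = 1.3e-07) and by 1.43 in Mko-3 (adjusted p = 4.6e-10). E2F1, an activating E2F, was 50.7, 69.6 and 43.7 CPM in control libraries and 108 to 120 in both clones, and rose by 1.06 in Ako-3 (adjusted p = 0.00035) and by 1.05 in Mko-3 (adjusted p = 3e-04). The repressive E2F7 rose by 1.28 in Ako-3 (adjusted p = 6e-05) and by 1.5 in Mko-3 (adjusted p = 1.1e-05). The related E2F8 rose by 0.91 (adjusted p = 6.9e-05) and by 1.17 (adjusted p = 1.7e-06). TFDP1, which dimerises with E2F proteins, rose by 0.99 in Ako-3 (adjusted p = 2.6e-08) and by 1.15 in Mko-3 (adjusted p = 8.2e-10). CCNE1, the gene of cyclin E1, rose by 0.62 (adjusted p = 0.00047) and by 1.03 (adjusted p = 1.5e-06). The list of 10 later cyclins and proliferation markers had 9 genes that rose in Ako-3 and 8 in Mko-3, and none that fell, with medians of 0.56 and 0.58. PCNA rose by 1.68 in Ako-3 (adjusted p = 0.012) and by 1.57 in Mko-3 (adjusted p = 0.014), and MCM2 by 1.60 (adjusted p = 0.0084) and by 1.30 (adjusted p = 0.016), all of them measured against a control group whose replicate 2 was high.

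Of 24 p53 targets other than CDKN1A, 20 were tested in Ako-3, where 3 rose and 10 fell, and 21 in Mko-3, where 4 rose and 10 fell, with medians of -0.26 and -0.22. GADD45A, a growth arrest gene, fell by 1.33 in Ako-3 (adjusted p = 6.4e-11) and by 1.21 in Mko-3 (adjusted p = 2.4e-10). BBC3, which encodes the apoptotic protein PUMA, fell by 1.26 (adjusted p = 8.2e-09) and by 1.73 (adjusted p = 3.8e-11). Of the 16 genes of the TGF-beta pathway, CCN2 was not found under that name among the deposited genes, and the other 15 were tested. Of these 15, 2 rose and 9 fell in Ako-3 and 4 rose and 5 fell in Mko-3. Their medians were -0.28 and -0.10, and none was called. Among 12 parts of the ubiquitin ligases for p27 or cyclin D, 6 rose and 1 fell in Ako-3 and 6 rose and 2 fell in Mko-3. None was called, where the background of 8.52% and 11.0% is about 1 gene in a list of that size. The 13 transcription factors known to act on CCND1 or the inhibitor genes were lower for the most part, with 2 that rose and 9 that fell in Ako-3, 3 that rose and 10 that fell in Mko-3, and medians of -0.51 and -0.52. MYC fell by 1.12 in Ako-3 (adjusted p = 5.9e-09), where it went from 69.0 to 89.3 CPM in control libraries to 33.2 to 39.4, and by 0.66 in Mko-3 (adjusted p = 2.2e-06), where it was 46.8 to 54.1. KLF4 fell by 1.41 in Ako-3 (adjusted p = 4.1e-07) and by 2.43 in Mko-3 (adjusted p = 1.8e-08), and was lower in Mko-3 than in Ako-3 cells at a log2 difference of -1.02 (adjusted p = 7.5e-06). FOXO4 fell by 0.60 in Ako-3 (adjusted p = 0.0015) and by 1.43 in Mko-3 (adjusted p = 1e-07).

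**Figure D5:**
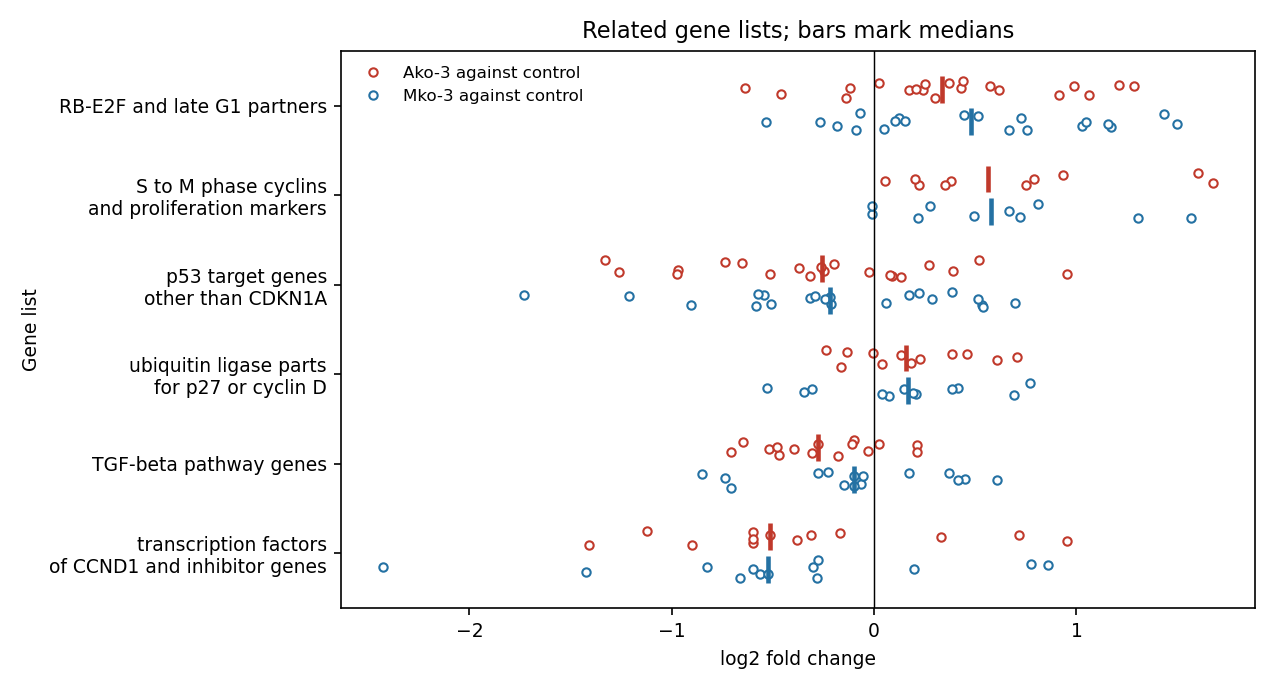
Log2 fold changes of the tested genes of 6 related lists in Ako-3 (red) and Mko-3 (blue) against control, with 1 circle per gene and a bar at the median of each list. The medians of the E2F and proliferation lists lay above 0 (0.34 to 0.58) and those of the p53 target and transcription factor lists below it (-0.52 to -0.22).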

How the data were processed

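RNA-seq of 9 libraries was analysed (3 each of control Huh-7, Ako-3 and Mko-3). Per the labels and the methods of the study, the authors aligned reads to hg38 with HISAT2 2.0.5 and counted them per gene with featureCounts 1.5.0-p3, and deposited raw counts of 58735 genes. The deposited FPKM are these counts divided by the deposited gene length and a library size. The kit does not mark strand. Counts were tested with edgeR 4.0.16 in R 4.3.3 (TMM, filterByExpr with a minimum count of 10, robust quasi-likelihood F test, 6 libraries per comparison), and p-values were adjusted over all genes tested. The standard error is the log2 fold change divided by the square root of F. CPM were scaled by TMM over all 9 libraries. Total counts of 14638727 to 20179760 leave genes of a few counts with wide errors. The script was tested on simulated data.

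Alternatives were DESeq2 1.42.0, its size factors in edgeR, other count filters, 1 fit of all libraries, a replicate block, limma 3.58.1 on log2(FPKM + 1) and leaving out each library. Exons are from GENCODE 44 and promoters from RefSeq. Named were all 10 genes, up to 4 called genes per related list and comparison by adjusted p, the 2 genes most like any called gene, and APOB and MTTP. The genes and lists were chosen with earlier results of these data known. The names of 27 genes had become dates and were left as identifiers.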

Additional observations from a re-analysis of the deposited data

Results flagged for a closer look

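For 6 of the 8 tested genes the clones differed from each other when Mko-3 cells were compared with Ako-3 cells directly, by edgeR's quasi-likelihood test. The log2 difference of Mko-3 minus Ako-3 was 0.41 for CCND1, 0.50 for CCND3, 0.39 for CDKN2B, 0.20 for CDK6, 0.20 for CDKN1A and -0.23 for CDKN1B. Under DESeq2 4 of the 8 passed the adjusted p, and under limma or 1 fit of all libraries 5 did. CDK6, CDKN2B and CDKN1A each missed it in some refits.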

How the results depend on the processing

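Of 312 refits of the 8 genes, 285 kept their direction and side of the adjusted p, 17 lost it, 10 gained it and none reversed. With at least 10 counts required in every library, the genes called fell from 1345 to 841 (Ako-3), 1739 to 1113 (Mko-3) and 890 to 511 (Mko-3 against Ako-3). That filter drops any gene with fewer than 10 counts in a single library, genes near absent in 1 group among them. With limma on log2(FPKM + 1), which understates low genes, the genes called were 317, 429 and 200. CDKN2B in Ako-3 was then -0.87, so that 0 of the 8 genes were called. Without a count filter 2 of the 10 were called, with CDKN1C added. Leaving out 1 library gave 1254 to 1637, 1623 to 2106 and 895 to 964 genes called, with 4 to 6, 6 to 7 and 5 to 6 of the 8 genes past the adjusted p. For Mko-3 against Ako-3, CDK6 no longer passed the adjusted p under DESeq2 (0.058), 1 fit of all libraries (0.11) and limma (0.15), nor CDKN2B under DESeq2 (0.075). The cause was not tested. CDKN1A in Mko-3 passed with the stricter filter (0.041) and 1 fit of all libraries (0.048).

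Libraries of the same number deviated together no more than others did (r from -0.12 to 0.09, against -0.11 to 0.12 for different numbers). Whether libraries of the same number were prepared together cannot be told from these values. With the replicate block 1336, 1730 and 899 genes were called, and 6, 7 and 7 of the 8 genes passed the adjusted p. CCND2 and CDKN1C, with 0 to 5 counts per library, did not pass the count filter of the main fits.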

Other observations

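The 7 tested genes within 1 Mb of CDKN2C were each lower in Ako-3 than in control cells. Their median log2 fold change was -0.24, while CDKN2C itself rose. Among them 5 passed the adjusted p, where 24.4% of all genes tested were lower at that threshold. EPS15 had the lowest value, -0.52. In Mko-3 against control cells 3 were higher and 4 lower (median -0.01). In Mko-3 against Ako-3 cells all 7 were higher and past the adjusted p, with a median of 0.26, where 21.1% of all genes tested were. These comparisons share libraries. Neighbours were counted around each of the 10 genes, and this locus and EPS15 were picked after their values had been seen. In Ako-3 against control, other loci were mixed, with 10 higher and 10 lower around CDKN1A and 21 and 20 around CDK4. Some leaned to one side, with 5 higher and 1 lower around CCND2 and 6 and 11 around CDKN1B.

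The genes whose level over the 9 libraries was most like that of CDKN2B, among 9817 genes with a mean of at least 10 CPM, were PRXL2C (r = 0.982 on log2(CPM + 1)) and the pseudogene RPL32P3 (r = 0.978). PRXL2C was 23.7, 16.0 and 18.7 CPM and RPL32P3 14.7, 10.3 and 11.7 CPM in control, Ako-3 and Mko-3 cells. The points share their libraries and groups, and the values are a description.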
